A study of Mus musculus with 4 samples.

Results

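A set of genes that sense, edit or clear nucleic acids were followed through single-cell RNA-seq of mouse mammary organoids. The list comprised Cgas, Ddx58, Ifih1, Dhx58, Zbp1, Eif2ak2, Adar, Tlr3, Mavs and Trex1. All 10 of these genes were present among the 32285 genes of the count tables, and 9 had at least 1 unique molecular identifier (UMI, a tag that counts each captured RNA molecule once) in the cells analysed. The exception was Trex1.

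Cells detect misplaced nucleic acids through a small set of receptors. Cgas binds DNA in the cytosol and makes a cyclic dinucleotide that activates Sting, while the helicases encoded by Ddx58 (RIG-I) and Ifih1 (MDA5) bind double-stranded or 5′-triphosphate RNA and signal through the mitochondrial adaptor Mavs. Both routes lead to type I interferon, whose receptor in turn raises the transcription of many of the sensors themselves, so that their RNA is commonly read together with other interferon-stimulated genes.

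The organoids came from mammary cells of virgin adult female mice that carried a monoallelic germline truncating mutation of Brca2 (Brca2mut/WT) and from their wild-type littermates. They were grown in Matrigel and left untreated (control) or exposed to hydroxyurea (HU), which depletes nucleotides and stalls DNA replication. One 10x Chromium library was made for each of the 4 combinations of genotype and treatment, so every condition had n = 1 library and no test between conditions was run. The labels give 2 replicates in each library, and each library also carried 4 antibody tags for which no key was used here, so cells were assigned to 4 unlabelled tag pools. HU was given as a pulse with recovery in each passage, so late-passage organoids had received more pulses than early-passage ones. The organoids had been frozen at an early or a late passage, thawed and cultured again before dissociation. The passage of a given cell is not stated in the sources used here.

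The 4 libraries held 33268 cells and 1062504699 gene UMIs, between 243430259 and 302135155 per library. Filtering on 1000 to 6000 detected genes and on less than 5% of UMIs from mitochondrial genes left 17360 cells, with a median of 24180 to 26893 UMIs per library. Levels are in CPM, the UMIs of a gene scaled to a common total, after summing the UMIs of all cells of a class in a library. Of the kept cells, 14008 were HR- luminal (hormone receptor-negative, milk-secretory type; Krt14 and Areg both under 300 CPM), 2217 were basal (Krt14 of at least 500 CPM) and 569 were HR+ luminal (hormone receptor-positive; Areg of at least 300 CPM). A further 457 cells with Krt14 between 300 and 500 CPM and 109 cells that passed both thresholds were left out, and 429 of the basal cells lay at 500 to 1000 CPM of Krt14, near the threshold. The markers of a lineage were highest in the lineage they name for 7 of 8 HR- luminal, 8 of 8 basal and 8 of 8 HR+ luminal markers. The exception was Aldh1a3, which was highest in HR+ luminal cells. The basal list includes Krt14 and the HR+ luminal list Areg. These genes set the lineages, so their place in this check was fixed in advance. The immune markers summed to between 1.68 and 11.8 CPM in any lineage of any library with Ptprc at 0 UMIs, whereas the fibroblast marker Dcn reached 702 to 1661 CPM in HR+ luminal cells against 1.18 to 9.09 CPM elsewhere. The other fibroblast markers were lower in HR+ than in HR- luminal cells, Pdgfra at 0 to 0.732 against 1.58 to 2.39 CPM and Col1a1 at 0 to 0.237 against 0.577 to 0.934 CPM. Library pairs shared 129 cell barcodes, 40 of them among kept cells.

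The promoters of the sensors were examined for the interferon-stimulated response element (ISRE), the short motif through which interferon raises transcription, because the results below turn on which members follow the interferon response. RefSeq promoter windows (GRCm38.p6, 250 bases before to 50 after the start) matched 8 of 10 members. Dhx58 and Zbp1 had no window and were not searched. The ISRE letters GAAA, 2 bases of any kind and again GAAA, searched on both strands, were present in 3.44% of 32851 promoters and in those of Ifih1, Ddx58 and Eif2ak2. Their first base lay at position 33, 3 and 19 after the start, respectively, counted from 1 at the start. The 30 bases around each match are given below in the direction of the gene, with the matched letters in capitals.
Ifih1 at chr2:62646206-62646235, minus strand: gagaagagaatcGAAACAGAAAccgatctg
Ddx58 at chr4:40239804-40239833, minus strand: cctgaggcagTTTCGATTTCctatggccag
Eif2ak2 at chr17:78882535-78882564, minus strand: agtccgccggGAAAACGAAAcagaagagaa

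No match lay in the windows of Cgas, Tlr3, Mavs, Adar (3 starts) or Trex1 (2 starts). E2F motifs, which are common in promoters of S-phase genes, were searched as TTTCCCGC (1.07% of promoters) and TTTGGCGC (0.514%), on both strands. None of the 8 members with a window had either. The 50 bases directly before the start are shown for 3 members without a match that behaved differently in the data, namely Cgas, Tlr3 and Mavs.
Cgas at chr9:78443238-78443287, minus strand: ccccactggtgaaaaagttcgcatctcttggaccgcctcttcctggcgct
Tlr3 at chr8:45410381-45410430, minus strand: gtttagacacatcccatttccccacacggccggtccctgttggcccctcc
Mavs at chr2:131234013-131234062, plus strand: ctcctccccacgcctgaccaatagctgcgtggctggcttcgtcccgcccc

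The sensor genes were next compared between lineages. Most sensor genes were lower in basal than in HR- luminal cells in every library, with the largest differences for Ifih1 and Zbp1. With the 4 libraries as replicates (edgeR quasi-likelihood test, Benjamini-Hochberg threshold of 0.05), 7 of 9 tested members were lower in basal than in HR- luminal cells and 0 were higher. Among all 13885 genes tested, 32.5% were lower and 32.4% higher. The median log2 fold change of the members was −0.70, against −0.0024 over all genes. The interferon gate sum was 925 to 1244 CPM in basal and 2363 to 3129 CPM in HR- luminal cells, all 10 of its genes were called lower in basal cells (median −1.61), and its part in the members' differences was not tested. The p-values measure the spread between these libraries, which may share mice or cultures. Log2 ratios printed with an SD are means of unscaled CPM ratios within libraries. The adjusted p-values beside them belong to the edgeR log2 fold changes, which use TMM scaling and can differ in size from these ratios.

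Ifih1, which encodes the sensor of long double-stranded RNA, had HR- luminal levels of 70.1, 72.3, 84.9 and 86.2 CPM (libraries are listed throughout as wild type without and with HU, then Brca2mut/WT without and with HU). The basal levels were 34.5, 28.0, 34.4 and 37.2 CPM. The lineages did not overlap, and basal cells were lower by a mean log2 ratio of −1.23 ± 0.15 (SD, n = 4 libraries; adjusted p = 1.05e-06). Zbp1, the sensor of Z-form nucleic acid that can trigger necroptosis, gave 91.9, 90.9, 106 and 114 CPM in HR- luminal and 42.5, 33.2, 47.4 and 52.2 CPM in basal cells, in the same order. Its mean log2 ratio was −1.21 ± 0.16 (adjusted p = 5.39e-08). Each of these genes was lower in the basal cells of all 14 tag pools that had enough cells for the comparison.

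Dhx58 encodes LGP2, a helicase related to RIG-I that modulates MDA5 signalling. It measured 35.2, 36.4, 45.2 and 42.7 CPM in HR- luminal cells and 21.9, 16, 19.5 and 25.4 CPM in basal cells, a mean log2 ratio of −0.96 ± 0.28 (adjusted p = 5.56e-06). Tlr3, which senses double-stranded RNA in endosomes, gave 25.1, 23.7, 29.1 and 29.1 CPM against 15.5, 15.4, 12.1 and 14.3 CPM (log2 ratio −0.90 ± 0.30, adjusted p = 7.06e-06). For both genes every basal value lay below every HR- luminal value. Ddx58 differed less, with 71.6, 73.9, 84.9 and 82.4 CPM in HR- luminal and 52.1, 44.1, 56.9 and 58.5 CPM in basal cells (log2 ratio −0.57 ± 0.13, adjusted p = 7.91e-06). Eif2ak2, the kinase PKR that halts translation on double-stranded RNA, ranged over 101 to 115 CPM and 66.9 to 83.5 CPM (log2 ratio −0.45 ± 0.13, adjusted p = 3.24e-05). Adar, the enzyme that edits adenosine in double-stranded RNA and so limits MDA5 activation, had the smallest of the called differences. It measured 20.6 to 22.9 CPM against 16.7 to 19.8 CPM (log2 ratio −0.27 ± 0.10, edgeR log2 fold change −0.41, adjusted p = 0.00122).

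The DNA sensor and the adaptor did not follow this order. Cgas was sparse, with 3.23, 2.46, 4.03 and 3.13 CPM in HR- luminal cells (335, 211, 349 and 222 UMIs) and 4.81, 3.76, 4.62 and 4.35 CPM in basal cells. Its log2 ratio was positive in all 4 libraries (0.47 ± 0.19), and the difference missed the threshold (adjusted p = 0.106). The cell cycle genes named below summed to 239 to 502 CPM in basal and to 167 to 239 CPM in HR- luminal cells. Outside the cycling cells defined below, Cgas gave 2.08 to 4.22 CPM in basal and 1.89 to 3.33 CPM in HR- luminal cells. There the basal value was the lower one in Brca2mut/WT control. The part of the cell cycle in the Cgas difference was not tested. Mavs gave 7.34, 6.12, 7.94 and 6.74 CPM in HR- luminal and 8.15, 5.43, 7.45 and 6.04 CPM in basal cells, which overlapped (log2 ratio −0.07 ± 0.15, adjusted p = 0.255). The TMM scaling used by edgeR moved the median of all genes: without it that median rose by 0.135 on the log2 scale, the share of called genes that were higher in basal cells went from 49.9% to 60.8%, and the members split into 1 higher (Cgas, adjusted p = 0.0325) and 7 lower.

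**Figure D1:**
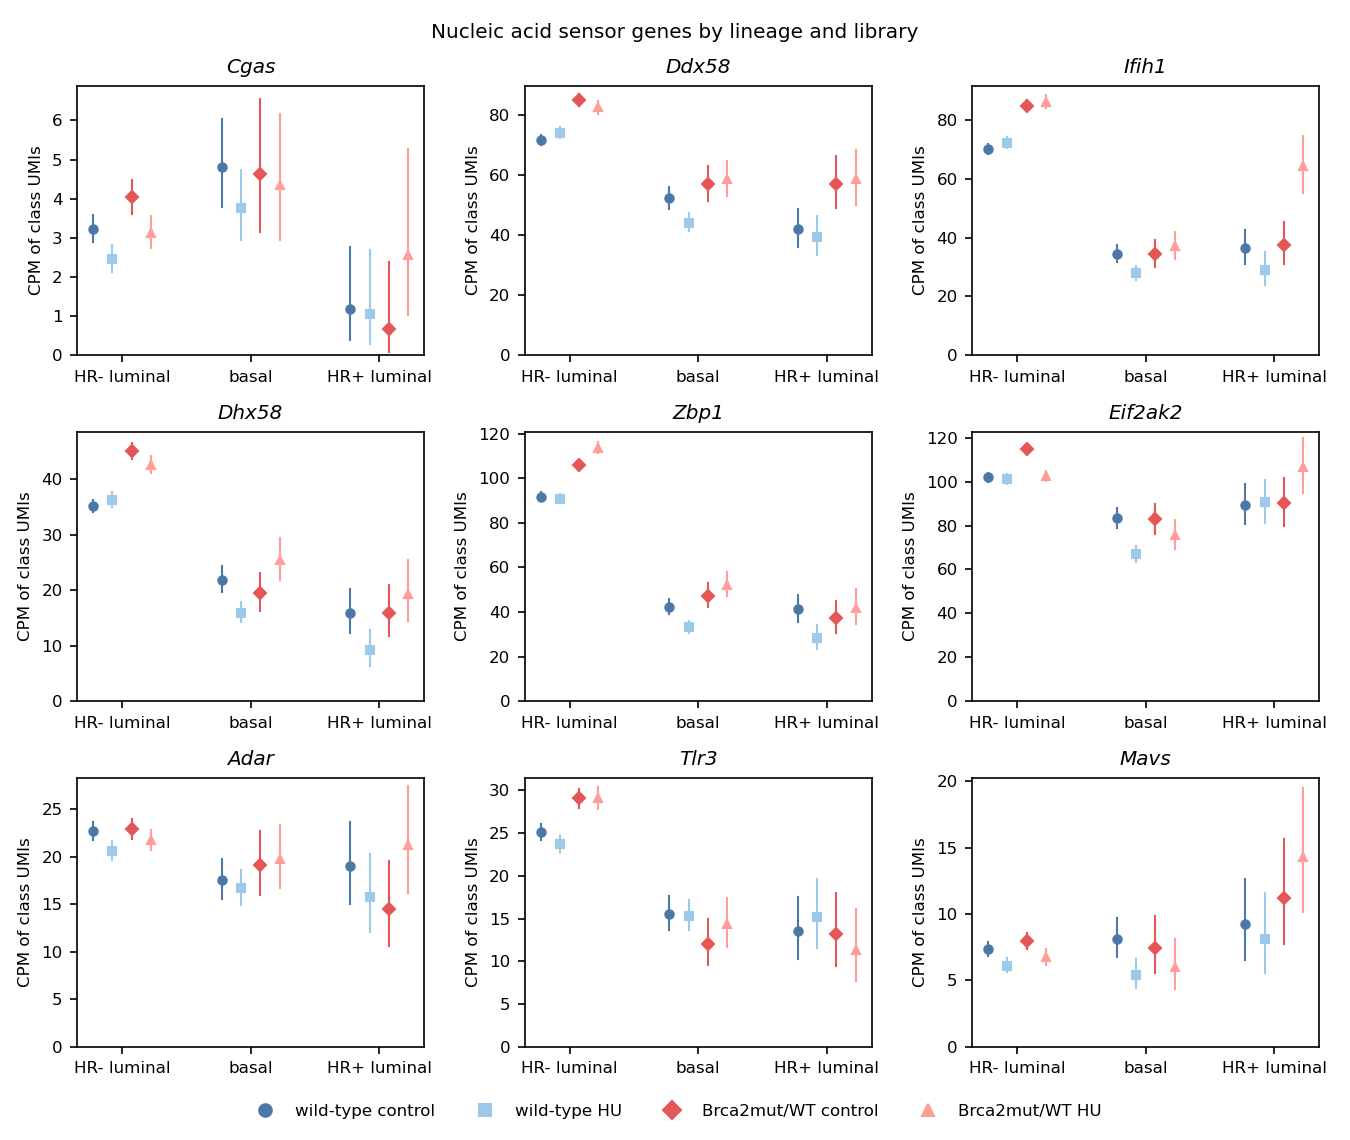
CPM of the 9 detected genes (one panel each, linear axes from 0) in HR- luminal, basal and HR+ luminal cells, with one point per library and bars for the 95% Poisson interval of the UMI count. For Ifih1, Zbp1, Dhx58 and Tlr3 all HR- luminal points lie above all basal points, while Cgas and Mavs overlap between these lineages.

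HR+ luminal cells also held less sensor RNA than HR- luminal cells. Of 9 tested members 8 were lower and 1 was higher, beside 32.9% and 31.3% of all genes tested, and the median log2 fold change was −1.13 (−0.05 over all genes). Without TMM scaling the median of all genes rose by 0.179, the share of called genes that were higher went from 48.7% to 61.2%, and 7 members were lower and 1 higher. Of the 3 fibroblast markers Dcn was called higher in the same HR+ luminal cells and Pdgfra and Col1a1 lower. The interferon gate sum was 887 to 1990 CPM in HR+ and 2363 to 3129 CPM in HR- luminal cells. Of its 10 genes 7 were called lower in HR+ luminal cells and 1 higher (median −1.34). The part of the interferon gate in the members' differences was not tested.

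Zbp1 gave 41.2, 28.4, 37.3 and 41.7 CPM in HR+ luminal cells of the 4 libraries, a log2 ratio to HR- luminal cells of −1.45 ± 0.22 (adjusted p = 3.42e-08). Dhx58 gave 15.9, 9.19, 15.8 and 19.4 CPM (−1.45 ± 0.40, adjusted p = 1.28e-06). Ifih1 gave 36.5, 29.1 and 37.6 CPM in the first 3 libraries and 64.4 CPM in Brca2mut/WT HU (−0.96 ± 0.39, adjusted p = 1.05e-05). These 3 genes were lower in every library and in all 6 tag pools compared, with Brca2mut/WT HU standing above the other libraries for Ifih1.

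Tlr3 (11.4 to 15.2 CPM, log2 ratio −1.01 ± 0.31, adjusted p = 1.05e-05) and Ddx58 (39.4 to 58.6 CPM, −0.69 ± 0.19, adjusted p = 3.27e-06) were likewise lower in every library. Adar (14.5 to 21.2 CPM) was lower with a ratio of −0.33 ± 0.26 (adjusted p = 0.00102). Eif2ak2 (89.6 to 107 CPM) was called lower with a small ratio of −0.16 ± 0.17 (edgeR log2 fold change −0.34, adjusted p = 0.0026). However, it was slightly higher in Brca2mut/WT HU (0.06), and the call was lost without TMM scaling (adjusted p = 0.0992). Cgas was represented by only 5, 4, 2 and 7 UMIs in HR+ luminal cells, or 1.18, 1.05, 0.66 and 2.56 CPM, and was lower in all 4 libraries (−1.39 ± 0.96, adjusted p = 0.00123). Mavs was the only member that was higher, with 9.24, 8.14, 11.2 and 14.3 CPM (0.58 ± 0.34, edgeR log2 fold change 0.40, adjusted p = 0.0412). That call was lost when wild-type HU (adjusted p = 0.0666), Brca2mut/WT control (0.104) or Brca2mut/WT HU (0.219) was left out.

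Between HR+ luminal and basal cells 3 members were lower in HR+ cells (Cgas −1.86 ± 0.84, Dhx58 −0.49 ± 0.22 and Zbp1 −0.23 ± 0.14) and 2 were higher (Mavs 0.65 ± 0.44 and Eif2ak2 0.29 ± 0.21), with 26.7% of all genes lower and 26.7% higher. The 5 calls became 3 without Brca2mut/WT control, 2 without Brca2mut/WT HU and 3 without tag pool 2. For Ifih1, Ddx58, Adar and Tlr3 the difference between HR+ luminal and basal cells missed the threshold (adjusted p of 0.161, 0.135, 0.589 and 0.383).

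Within HR- luminal cells, the members were then compared between cells with a strong interferon response and the rest. Interferon-high cells were the top 10% of HR- luminal cells in each library by the summed CPM of Ifit1, Ifit3, Isg15, Rsad2, Usp18, Rtp4, Ifi44, Ifit2, Bst2 and Cmpk2, none of which belongs to the sensor list. This gave 420, 345, 359 and 275 cells in the 4 libraries, 1399 in all, of which 541 came from tag pool 2. By library, pool 2 gave 54, 108, 185 and 194 of them, from 203, 592, 686 and 389 HR- luminal cells in that pool. The interferon-high cells had about the same depth as the rest (median 25816 against 25301 UMIs). Their summed gate level was 5354, 5582, 7673 and 8549 CPM against 2019 to 2695 CPM in the other HR- luminal cells. Cell cycle genes moved with the gate: Mki67, Top2a, Birc5, Ccnb2, Cdc20, Cenpf, Cdk1 and Ube2c summed to 47.0 to 101 CPM in interferon-high cells and to 178 to 257 CPM in the rest. The part of the cell cycle in the differences was not tested here.

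In interferon-high cells 7 of 9 tested members were higher and 0 were lower, beside 7.91% and 5.32% of the 14726 genes tested. The median log2 fold change of the members was 0.90 and that of all genes −0.02. The same 7 members were called in every alternative that was run, although the number of genes called over the whole table (1948) fell to 291 without wild-type control, 208 without Brca2mut/WT control and 1033 without Brca2mut/WT HU.

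All helicase genes were among them. Ddx58 measured 121, 121, 145 and 159 CPM in interferon-high cells and 65.9, 68.7, 79.2 and 74.2 CPM in the rest (log2 ratio 0.92 ± 0.13, adjusted p = 0.000259). Ifih1 gave 130, 137, 159 and 154 CPM against 63.3, 65.2, 77.8 and 79.0 CPM (1.02 ± 0.04, adjusted p = 0.000278). Dhx58 rose from 32.0, 33.0, 41.1 and 37.2 CPM to 63.1, 66.8, 88.1 and 94.8 CPM (1.11 ± 0.17, adjusted p = 0.000244). The high and low classes did not overlap for any of the 3 genes.

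The other interferon-associated members behaved alike. Zbp1 reached 159, 140, 203 and 245 CPM against 84.2, 85.3, 96.8 and 99.9 CPM (1.0 ± 0.24, adjusted p = 0.00103), and Tlr3 43.0, 34.6, 57.6 and 63.2 CPM against 23.1, 22.5, 26.3 and 25.5 CPM (0.99 ± 0.30, adjusted p = 0.00282). Eif2ak2 was higher by 0.82 ± 0.06 (158 to 190 against 93.8 to 108 CPM, adjusted p = 0.000366) and Adar by 0.72 ± 0.21 (28.3 to 39.3 against 19.8 to 21.6 CPM, adjusted p = 0.00411). Tlr3 and Adar were among the called genes without ISRE letters in their promoter windows, whereas Ifih1, Ddx58 and Eif2ak2 had them. Dhx58 and Zbp1, also called, were not searched.

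Cgas and Mavs missed the threshold. Cgas gave 3.55, 3.24, 5.03 and 5.87 CPM in interferon-high cells and 3.19, 2.37, 3.94 and 2.83 CPM in the rest (0.50 ± 0.39, adjusted p = 0.108), so its ratio was positive in all 4 libraries but varied widely between them. Mavs gave 8.50, 5.67, 9.67 and 9.09 CPM against 7.21, 6.17, 7.77 and 6.49 CPM (0.23 ± 0.26, adjusted p = 0.207), and was lower in the interferon-high cells of wild-type HU.

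**Figure D2:**
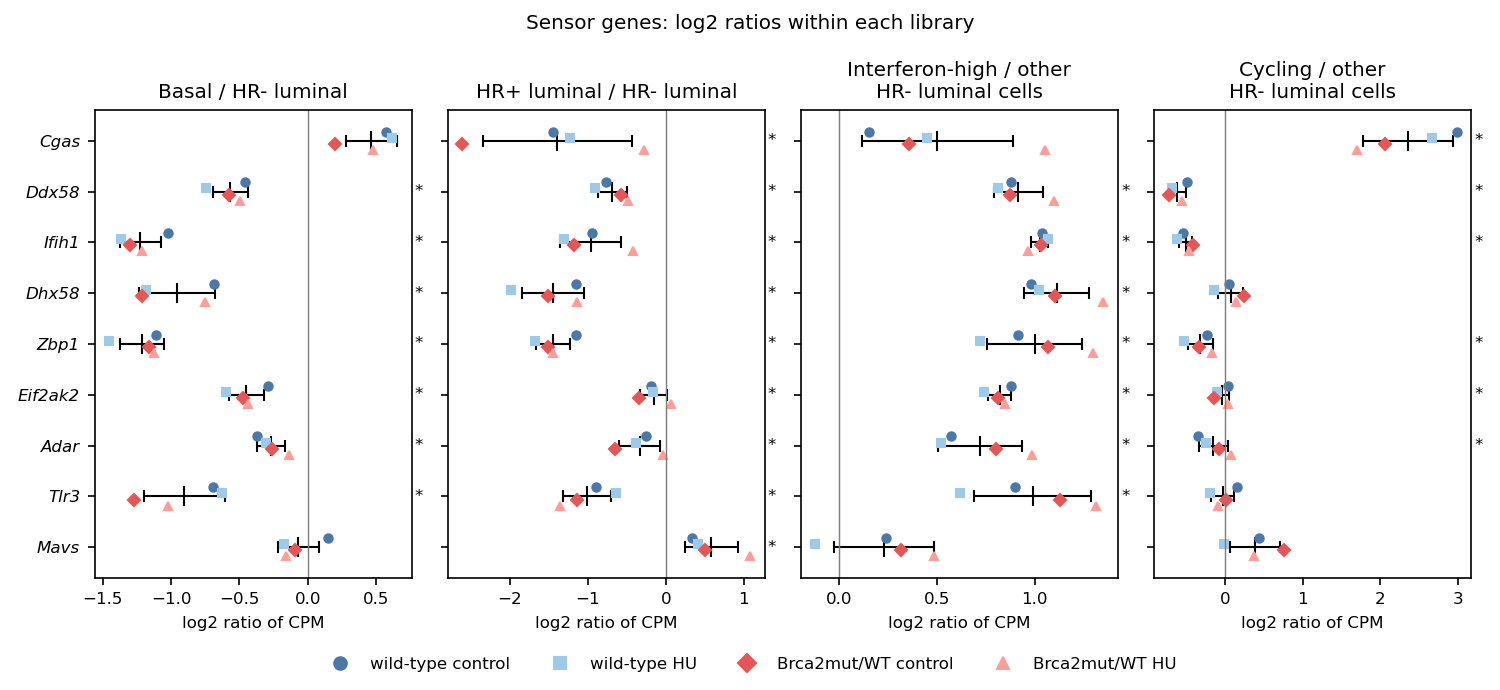
Log2 CPM ratios of the 9 detected genes for basal against HR- luminal, HR+ luminal against HR- luminal, interferon-high against other HR- luminal and cycling against other HR- luminal cells, with one point per library, a bar for mean ± SD (n = 4 libraries) and a star where the edgeR adjusted p was under 0.05. Ddx58, Ifih1, Dhx58, Zbp1, Eif2ak2, Adar and Tlr3 carry a star above 0 in the interferon-high panel, while Cgas stands far above 0 in the cycling panel with a mean of 2.35.

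Cgas went against Ddx58, Ifih1 and Zbp1 in cycling HR- luminal cells. Cycling cells were the HR- luminal cells with at least 500 CPM summed over the 8 cell cycle genes named above, 896 cells in all and 6.40% of HR- luminal cells. Of the 9 tested members, 1 was higher in cycling cells (Cgas) and 5 were lower, beside 24.5% and 26.2% of the 14777 genes tested. Without TMM scaling the median of all genes rose by 0.112, the share of called genes that were higher went from 48.3% to 61.4%, and 2 members were higher and 3 lower.

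Cgas measured 18.3, 12, 13.9 and 9.08 CPM in cycling cells and 2.31, 1.89, 3.33 and 2.79 CPM in the other HR- luminal cells. The classes did not overlap, and the mean log2 ratio was 2.35 ± 0.58, a 5.12-fold difference (adjusted p = 5.33e-08). Ddx58, Ifih1 and Zbp1 went the other way. Ddx58 measured 46.7 to 56.9 CPM in cycling cells against 72.9 to 87.2 CPM (−0.62 ± 0.11, adjusted p = 4.18e-08). Ifih1 measured 48.0 to 64.3 against 71.4 to 87.5 CPM (−0.52 ± 0.09, adjusted p = 1.36e-07). Zbp1 measured 63.6 to 101 against 92.5 to 114 CPM (−0.33 ± 0.16, adjusted p = 1.59e-05). The interferon gate sum was also lower in cycling cells, at 1625 to 2553 CPM against 2390 to 3192 CPM, and its part in these differences was not tested.

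Eif2ak2 (−0.05 ± 0.09, edgeR log2 fold change −0.16, adjusted p = 0.0187) and Adar (−0.16 ± 0.19, edgeR log2 fold change −0.27, adjusted p = 0.0131) were called lower. Both calls rested on single libraries and on the scaling. Eif2ak2 missed the threshold without wild-type HU (adjusted p = 0.103), without Brca2mut/WT control (0.123) and without TMM scaling (0.49), and Adar without wild-type control (0.154), without wild-type HU (0.0754) and without TMM scaling (0.13). Dhx58, Tlr3 and Mavs missed the threshold (adjusted p of 0.71, 0.154 and 0.0632). The Mavs ratio of 0.38 ± 0.32 passed it without wild-type HU (adjusted p = 0.0199).

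To place Cgas within the cycle, a second gate was chosen after the values were seen. Among HR- luminal cells below the cycling gate, the top 5% in each library by the summed CPM of the S-phase genes Mcm5, Mcm6, Mcm2, Mcm3, Pcna, Tyms, Rrm2, Clspn, Hells, Gins2 and Uhrf1 formed an S-phase gate of 654 cells. The genes of the cycling gate are mainly G2/M genes, and those cells are called the G2/M gate in this comparison. In Brca2mut/WT HU the S-phase gate was shallower than in the other libraries (median 12922 UMIs against 27318 to 28297.5 UMIs).

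Cgas measured 20.6, 15.5, 31.7 and 23.6 CPM in the S-phase gate (101, 62, 113 and 57 UMIs) and 1.34, 1.18, 2.02 and 2.02 CPM in HR- luminal cells of neither gate (125, 91, 156 and 131 UMIs). This 13.8-fold difference was close to equal in the 4 libraries, with log2 ratios of 3.94, 3.71, 3.97 and 3.54 (mean 3.79 ± 0.20, adjusted p = 5.52e-10). Cgas was the only one of the 9 tested members called in the S-phase gate, where 19.9% of 11929 genes tested were higher and 18.3% lower. Without wild-type HU, Ifih1 was called as well (edgeR log2 fold change −0.25, adjusted p = 0.0247).

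From the S-phase gate to the G2/M gate 5 of the 9 members were lower, beside 15.0% of all genes lower and 12.7% higher, and 3 were called without Brca2mut/WT control. They were Cgas (−0.78 ± 0.60, adjusted p = 0.00731), Ddx58 (−0.61 ± 0.17, adjusted p = 1.66e-06), Ifih1 (−0.40 ± 0.24, adjusted p = 0.00056), Zbp1 (−0.41 ± 0.11, adjusted p = 7.21e-05) and Eif2ak2 (−0.13 ± 0.19, adjusted p = 0.0162). The step differed in size between libraries for Cgas, with log2 ratios in the wild-type libraries of −0.17 (95% counting interval −0.58 to 0.23) without and −0.36 (−0.90 to 0.18) with HU. The Brca2mut/WT libraries gave −1.19 (−1.63 to −0.77) without and −1.38 (−2.03 to −0.74) with HU. On leaving out 1 tag pool these ratios ranged from −0.36 to −0.00096, from −0.56 to −0.25, from −1.49 to −0.67 and from −1.60 to −0.86, in the same order. Whether the step differed between genotypes was not tested.

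In basal cells Cgas was also higher in cycling than in other cells, and no S-phase gate was set there. The cycling gate was passed by 303 basal cells (94, 146, 31 and 32 in the 4 libraries). Cgas measured 9.23, 10.6, 18.6 and 12 CPM in them, against 4.22, 2.08, 2.99 and 3.56 CPM in the other basal cells (log2 ratio 1.97 ± 0.67, adjusted p = 3.78e-05). Ifih1 (−0.62 ± 0.29, adjusted p = 0.00643) and Zbp1 (−0.64 ± 0.63, adjusted p = 0.00947) were lower in the cycling basal cells. These 3 of 9 members compare with 20.1% of 12008 genes higher and 15.9% lower.

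**Figure D3:**
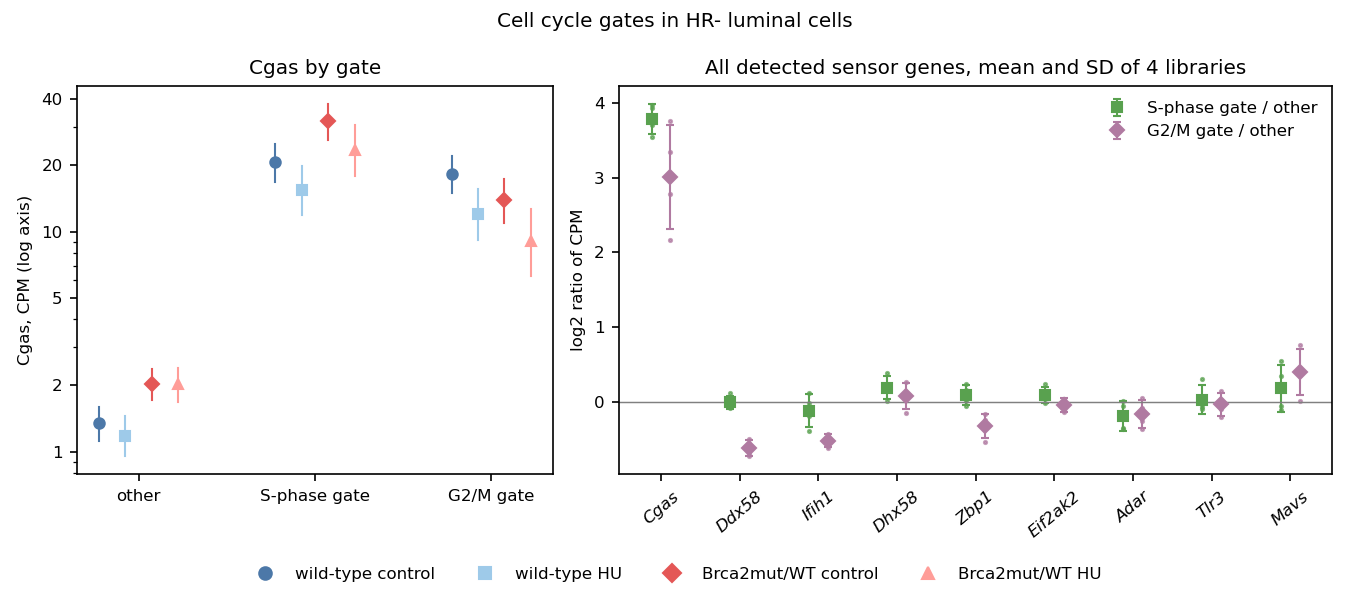
Left, CPM of Cgas (log axis) in HR- luminal cells of neither gate, the S-phase gate and the G2/M gate, one line per library with 95% Poisson bars. Right, log2 CPM ratio of each gene for the S-phase gate and the G2/M gate (mean ± SD of 4 libraries). Cgas stands at 3.79 in the S-phase gate, and Ddx58, Ifih1 and Zbp1 fall below 0 in the G2/M gate. The S-phase ratio is taken against cells of neither gate. The mean of 2.35 given for Cgas in cycling cells was taken against all other HR- luminal cells, S-phase gate included. That mean is not to be set against 3.79.

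The 16 tag pools showed how far the members varied inside a library. A pool was the HR- luminal cells of one library in which 1 antibody tag held at least 70% of at least 200 tag UMIs, and pools held 119 to 1746 cells. Pool 2 of Brca2mut/WT HU (389 cells) had the highest interferon gate sum, 6852 CPM, and the highest level of 6 members: Ddx58 126 CPM, Ifih1 122 CPM, Dhx58 77.9 CPM, Zbp1 209 CPM, Adar 34.5 CPM and Tlr3 58.9 CPM. Pool 2 of Brca2mut/WT control (686 cells) came next in the gate sum, with 5086 CPM, and measured 111 CPM of Ddx58, 107 CPM of Ifih1 and 155 CPM of Zbp1. At the other end, pool 1 of wild-type control (1746 cells) had the lowest gate sum, 2004 CPM, with 62.6 CPM of Ddx58, 30.2 CPM of Dhx58 and 20.5 CPM of Tlr3.

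The ratio of the highest to the lowest pool was 4.82 for Cgas, 3.44 for Zbp1, 2.88 for Tlr3, 2.58 for Dhx58, 2.46 for Mavs, 2.02 for Ddx58, 1.94 for Ifih1, 1.91 for Adar and 1.63 for Eif2ak2. On log2(CPM + 1), Pearson's r with the interferon gate sum over the 16 pools was 0.97 for Dhx58, 0.96 for Ddx58, 0.93 for Tlr3, 0.92 for Ifih1, 0.91 for Adar, 0.89 for Eif2ak2 and 0.88 for Zbp1, and lower for Mavs (0.74) and Cgas (0.71). These are descriptions, since the pools of one library share its preparation and depth and the same pools carry both measures. Cgas had its highest level, 9.26 CPM, in pool 2 of wild-type control, whose cell cycle gate sum was 401 CPM, and its lowest, 1.92 CPM, in pool 3 of Brca2mut/WT HU, where that sum was 93.7 CPM. Its r with the cell cycle gate sum was 0.84.

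The genes whose pattern over the 16 pools was most like that of a member, among genes with a mean of at least 10 CPM, were Gbp3, Ifi44 and Isg15 for Ddx58 (r of 0.964, 0.962 and 0.96), Nmnat1 and Ifit1 for Ifih1 (0.95 and 0.946) and Rnf213, Parp12 and Ifi44l for Dhx58 (0.978, 0.973 and 0.972). Zbp1 came closest to Apol9b, Psmb8 and Trim30a (0.955, 0.953 and 0.951) and Eif2ak2 to Ddx58, Isg15 and Irgm2 (0.953, 0.905 and 0.898). For the remaining members the nearest genes were Met, Cmtr1 and Tapbp for Adar (0.944, 0.944 and 0.939), Tapbpl, Grtp1 and Chpt1 for Tlr3 (0.983, 0.977 and 0.976) and Lurap1, Erbb3 and Snx10 for Mavs (0.927, 0.924 and 0.923).

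**Figure D4:**
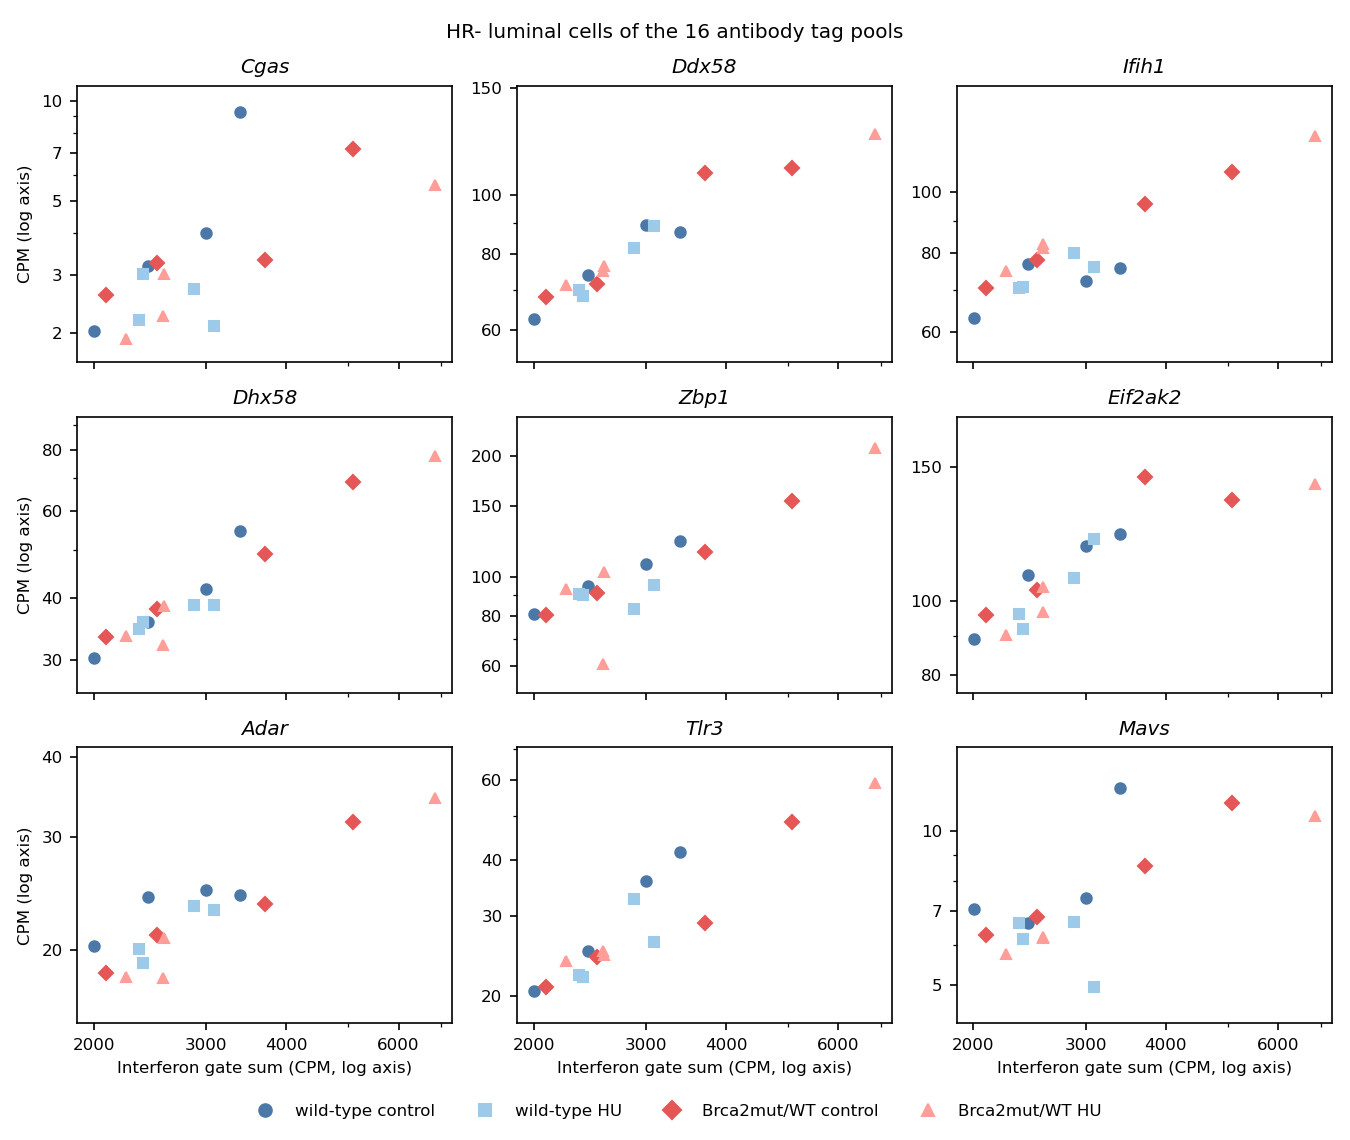
CPM of each detected gene against the interferon gate sum (CPM, both axes logarithmic) in the HR- luminal cells of the 16 tag pools, coloured by library. The 2 pools with the highest gate sums, 5086 and 6852 CPM, are pool 2 of the Brca2mut/WT libraries, and they lie at the top for Dhx58, Zbp1 and Tlr3.

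The design asked whether Brca2 genotype, HU and passage alter these genes. Passage could not be compared here because it was not known for a given cell. A ratio of HU to control may therefore mix cells with different numbers of HU pulses. With 1 library per condition the differences are given as log2 CPM ratios with 95% intervals that cover counting error only. A 1.5-fold difference was used as the mark of size. It applied to genes with at least 10 CPM, reached by 7 members in HR- luminal and basal cells (not by Cgas and Mavs). None of the 7 passed it in HR- luminal cells in any of the 4 comparisons, where the share of all genes past it was 1.36% for wild-type HU against wild-type control, 1.25% for Brca2mut/WT HU against Brca2mut/WT control, 0.987% for Brca2mut/WT control against wild-type control and 0.965% for Brca2mut/WT HU against wild-type HU.

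HU was accompanied by small differences in HR- luminal cells. In wild type, the interval excluded 0 for 3 of 9 members, all lower with HU: Cgas (−0.39, −0.65 to −0.14), Mavs (−0.26, −0.43 to −0.10) and Adar (−0.14, −0.23 to −0.05). The median over members was −0.02 (0.02 over all genes). The share of all genes whose interval excluded 0 was not counted in either genotype. In Brca2mut/WT, Cgas (−0.37, −0.62 to −0.12), Mavs (−0.23), Eif2ak2 (−0.17) and Dhx58 (−0.08) were lower and Zbp1 (0.10, 0.06 to 0.15) was higher, with a median of −0.08. The Cgas difference in wild type was −0.88 without tag pool 1 and −0.17 without tag pool 2. With a looser cell filter (no upper limit on genes, less than 10% mitochondrial UMIs), the Cgas ratio in Brca2mut/WT was 0.21 and so changed sign.

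Brca2mut/WT HR- luminal cells had slightly more sensor RNA than wild-type cells. Among controls all 9 members had ratios above 0, and the interval excluded 0 for 7: Dhx58 (0.36, 0.29 to 0.42), Cgas (0.32), Ifih1 (0.28), Ddx58 (0.24), Zbp1 (0.21), Tlr3 (0.21) and Eif2ak2 (0.18). The member median was 0.21 and that of all genes 0.06. The shares of all genes with such a ratio or interval were not counted. The Cgas ratio was 0.09 without tag pool 1, 0.52 without tag pool 3 and −0.17 with equal weight per tag pool. Under HU the interval excluded 0 for Cgas (0.35), Zbp1 (0.32), Tlr3 (0.29), Ifih1 (0.25), Dhx58 (0.23) and Ddx58 (0.16), with a median of 0.23. The interferon gate sum of the same cells was 2363, 2558, 3129 and 3098 CPM.

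The size of the Brca2mut/WT to wild-type ratios depended on which tag pool was left out. Without pool 2 in every library, the median over members was 0.12 among controls and 0.06 under HU, and 6 of 9 ratios were above 0 in each. Tlr3 was then at −0.01 and Zbp1 at 0.05 among controls, and Dhx58 at 0.04 and Tlr3 at 0.06 under HU, whereas Ifih1 stayed at 0.18 and 0.17. Without pool 3 in every library the ratio of every member was instead larger in both comparisons. Among controls it was then 0.53 for Dhx58, 0.46 for Ifih1, 0.38 for Zbp1 and 0.38 for Tlr3. Under HU it was 0.35, 0.33, 0.46 and 0.38, in the same order. For every member the range over the 4 pools of one condition overlapped that of the other.

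Cgas was also compared inside each cell cycle class. Outside both gates it was 0.59 higher on the log2 scale in Brca2mut/WT control than in wild-type control (0.24 to 0.94) and 0.77 higher under HU (0.38 to 1.18). These values were 0.17 and 0.57 without tag pool 2, and 0.78 and 0.995 without tag pool 3. In the S-phase gate the corresponding ratios were 0.62 (0.22 to 1.02) and 0.61 (0.06 to 1.15). They were 0.37 and 0.33 without pool 2, and 0.94 and 0.89 without pool 3. In the G2/M gate the ratios were −0.40 (−0.83 to 0.03) and −0.41 (−1.06 to 0.23), with intervals that included 0. The first was −0.13 without pool 2 and the second 0.11 without pool 1. The ratio of HU to control in the G2/M gate was −0.60 (−1.09 to −0.13) in wild type, or −0.20 without pool 2 and −1.12 without pool 1, and −0.61 (−1.24 to −0.02) in Brca2mut/WT, or −0.73 to −0.43 on leaving out 1 pool.

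Basal cells differed more between libraries than HR- luminal cells did. Their sums held 6710879 to 19147961 UMIs per library, against 71024638 to 103837852 UMIs in HR- luminal cells, so their counting error was larger. The part of counting error in the larger share of genes past 1.5-fold was not tested. Between wild-type HU and wild-type control, 6.99% of all genes passed 1.5-fold and 0 of the 7 members did, but the interval lay below 0 for 6 of 9 members and the median was −0.32 (0.03 over all genes). Mavs (−0.58, −0.97 to −0.20), Dhx58 (−0.46, −0.68 to −0.23), Zbp1 (−0.36), Eif2ak2 (−0.32), Ifih1 (−0.30) and Ddx58 (−0.24) were lower with HU. The tag pools did not overlap for Ifih1 (24.3 to 28.6 CPM with HU against 29.8 to 45.0 CPM) and Eif2ak2 (58.4 to 77.9 against 79.2 to 92.9 CPM). Only pools with at least 20 cells were compared. The shares of all genes with separate pools or with an interval below 0 were not counted. Without tag pool 4, Zbp1 passed the fold with −0.61. The same basal cells differed in the cell cycle gate sum, 502 CPM with HU against 287 CPM, and in the HR- luminal markers, 3014 against 3939 CPM. The part of either in the differences was not tested.

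In Brca2mut/WT basal cells HU gave another picture. Of all genes 4.77% passed 1.5-fold and 0 members did, and the only interval that excluded 0 was that of Dhx58, which was higher (0.38, 0.05 to 0.72; 25.4 against 19.5 CPM) and was at −0.01 under the looser cell filter. Averaging tag pools with equal weight brought Tlr3 past the fold (0.68). Between Brca2mut/WT control and wild-type control, 0 members passed the fold (3.99% of all genes), and no interval excluded 0. The share of all genes whose interval excluded 0 was not counted in either comparison.

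Under HU, Brca2mut/WT basal cells held more sensor RNA than wild-type basal cells. Dhx58 (0.67, 0.40 to 0.94; 25.4 against 16 CPM) and Zbp1 (0.65, 0.47 to 0.84; 52.2 against 33.2 CPM) passed 1.5-fold, beside 7.99% of all genes, and Ddx58 (0.41), Ifih1 (0.41) and Eif2ak2 (0.18) had intervals above 0. This comparison shares the wild-type HU library with that of HU in wild type. The tag pools with at least 20 cells did not overlap for Dhx58 and Ifih1. The shares of all genes with separate pools or with an interval above 0 were not counted. In the same basal cells the cell cycle gate sum was 239 against 502 CPM and the interferon gate sum 1244 against 925 CPM, and their part was not tested. No member passed the fold under the looser cell filter, where Dhx58 stood at 0.36 and Zbp1 at 0.34.

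HR+ luminal cells gave few UMIs per library. Between Brca2mut/WT HU and wild-type HU the interval lay above 0 for 6 members and below 0 for 0. Of the 8 members with at least 10 CPM there, 3 passed 1.5-fold, namely Ifih1, Dhx58 and Mavs. Against Brca2mut/WT control the interval excluded 0 for 1 member, Ifih1. The shares of all genes past the fold or with an interval that excluded 0 were not counted in this lineage. Ifih1 was nonetheless higher in Brca2mut/WT HU (64.4 CPM) than in wild-type HU (29.1 CPM; log2 ratio 1.15, 0.79 to 1.5) and than in Brca2mut/WT control (37.6 CPM; 0.78, 0.43 to 1.13). Dhx58 was higher by 1.08 (0.44 to 1.74) against wild-type HU. Ifih1 was detected in 51.2% of HR+ luminal cells in Brca2mut/WT HU, 50% in wild-type HU and 52.4% in Brca2mut/WT control. At equal depth per cell these shares were 41.9% (31.3 to 53.0), 28.5% (20.9 to 37.0) and 33.3% (24.7 to 42.9), with overlapping 95% intervals. The counting interval of a ratio treats UMIs as independent, and whether few cells held the added Ifih1 UMIs was not tested. The interferon gate sum in these HR+ luminal cells was 1990 CPM in Brca2mut/WT HU and 887 to 1151 CPM in the other 3 libraries.

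**Figure D5:**
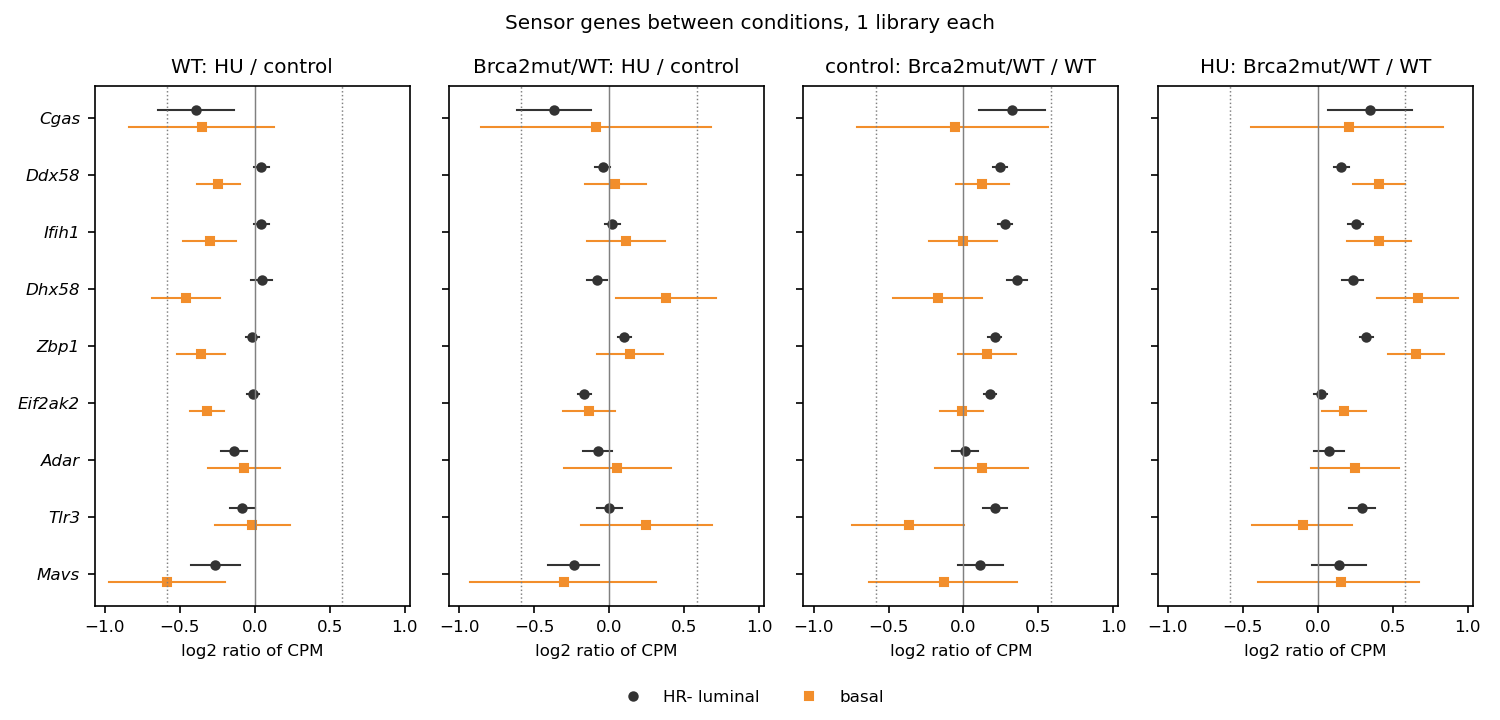
Log2 CPM ratio between libraries for each detected gene in HR- luminal (black) and basal cells (orange), one panel per comparison, with 95% intervals of counting error and dotted lines at 1.5-fold. HR- luminal points stay inside the dotted lines for all members in all 4 panels, and basal Dhx58 and Zbp1 lie beyond the upper line in Brca2mut/WT HU against wild-type HU.

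Trex1, the exonuclease that degrades cytosolic DNA, could not be followed. It had 0 UMIs in the lineages analysed and 1 UMI in all 33268 cells. A count of 0 allows up to 3 counts, or 0.00732 CPM over the 409641713 UMIs of these lineages. The gene (chr9:109057933-109059734, minus strand, GRCm38) lies wholly inside Atrip (chr9:109057933-109074124) on the same strand, and Atrip had 10709 UMIs in all cells. Whether this overlap lowered the count of Trex1 was not tested, and the level of Trex1 RNA is unknown here.

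Other genes of the pathway were described by lists, with basal and HR+ luminal cells compared with HR- luminal cells and interferon-high and cycling cells with the other HR- luminal cells. Single values after the CPM ranges are edgeR log2 fold changes, and the shares of all genes called are those given above. Downstream of the sensors lie 14 adaptors and kinases, of which 6 were higher and 5 lower in basal than in HR- luminal cells. Irf7, the transcription factor that amplifies interferon output, was lower in basal cells (118 to 180 against 586 to 693 CPM, edgeR log2 fold change −2.29, adjusted p = 1.76e-09), as was the ubiquitin ligase gene Traf6 (−0.69). The kinase gene Ikbke (7.75 to 10.5 against 2.75 to 3.65 CPM, 1.29) and G3bp1 (0.71), a stress granule protein, were higher. In HR+ luminal cells 4 were higher and 5 lower, among them Tmem173, which encodes Sting and measured 2.20 to 8.29 CPM against 14.3 to 17.6 CPM (−1.46). Interferon-high cells had 3 of the 14 higher and 0 lower, namely Rnf135 (0.91) and Trim25 (0.42), ubiquitin ligases that act on RIG-I, and Irf7 (0.75), and cycling cells had 2 higher and 7 lower. The median log2 fold change of the list was 0.18 in basal, 0.08 in interferon-high and −0.21 in cycling cells, against −0.0024, −0.02 and −0.04 over all genes.

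Of 28 further nucleic acid sensors, 23 could be tested between lineages. In basal cells 7 were higher and 11 lower, the largest falls being those of Ddx60 (12.8 to 17.3 against 44.4 to 65.3 CPM, −1.95), Oasl1 (−1.40), Oasl2 (35.7 to 54.4 against 88.9 to 116 CPM, −1.25) and Oas2 (−1.09). In HR+ luminal cells 8 were higher and 7 lower, with Lrrfip1, a binding protein of nucleic acids, higher at 120.4 to 175 against 49.5 to 54.9 CPM (1.31). In interferon-high cells 13 of 22 were higher and 0 lower, led by Ifi207 (2.20), Oasl1 (31.7 to 45.0 against 6.94 to 9.58 CPM, 2.08), Ifi204 (1.76) and Ifi203 (108 to 146 against 35.9 to 48.1 CPM, 1.57). In cycling cells 4 were higher and 10 lower, including Ifi207 (−2.78), Oas3 (−1.35) and Ifi204 (−1.32). The medians were −0.24 in basal, 0.86 in interferon-high and −0.12 in cycling cells. Tlr7 and Tlr9, the endosomal sensors of single-stranded RNA and of DNA, had 0 UMIs, and Aim2 had 15 UMIs, none of them in HR- luminal cells (0.366 to 1.58 CPM in HR+ luminal cells).

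Of 12 nucleic acid clearance genes 5 were higher and 4 lower in cycling HR- luminal cells, beside 24.5% and 26.2% of all genes. All 3 subunits of RNase H2, which removes ribonucleotides from DNA, were among the higher genes: Rnaseh2c (232 to 242 against 68.5 to 77.4 CPM, 1.60), Rnaseh2a (1.49) and Rnaseh2b (0.96). Banf1, a chromatin protein that competes with Cgas for DNA, was also higher (256 to 273 against 101 to 107 CPM, 1.24). In basal cells 6 clearance genes were higher and 2 lower, with Adarb1, a second adenosine deaminase, at 8.04 to 19.4 against 3.97 to 5.06 CPM (1.37). In HR+ luminal cells 3 were higher and 4 lower. Enpp1, which hydrolyses the dinucleotide made by Cgas, was lower in HR+ luminal (1.46 to 7.35 against 30.4 to 37.3 CPM, −2.96) and in interferon-high cells (6.60 to 20.4 against 31.7 to 39.2 CPM, −1.31), where 3 others of the list were higher. The medians were 0.23 in basal, −0.12 in interferon-high and 0.12 in cycling cells.

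Of 15 interferon and receptor genes, 10 could be tested between lineages. In basal cells 6 were lower and 0 higher, among them Ifnlr1 (−1.10) and Ifnar2 (−0.85), receptor chains for type III and type I interferon. In HR+ luminal cells 5 were lower and 1 higher. In interferon-high cells 6 were higher, including the signal transducer gene Stat2 (30.7 to 58.8 against 16 to 20.3 CPM, 1.26), and in cycling cells 7 of 9 were lower, including Stat2 (−0.80). Interferon transcripts themselves were almost undetected in HR- luminal cells. Ifna4 had 0 UMIs, and in HR- luminal cells Ifnb1 had 25 UMIs in 3 cells of wild-type control, 109 UMIs in 1 cell of wild-type HU, 2 UMIs in 1 cell of Brca2mut/WT control and 0 UMIs in Brca2mut/WT HU. Ifnb1 was among the 6 genes called in interferon-high cells, and that call rests on these 5 cells. The type III genes Ifnl2 and Ifnl3 had 27 and 9 UMIs over the lineages. In HR+ luminal cells Ifnl2, Ifnl3 and Ifnb1 measured 4.03, 1.10 and 1.83 CPM in Brca2mut/WT HU (123 cells) and 0 CPM in the other libraries. These are few UMIs, and the number of cells that held them was not counted. The medians of the list were −0.61 in basal, 0.27 in interferon-high and −0.40 in cycling cells.

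Of the 8 genes of the death arms 3 were higher and 3 lower in basal cells, beside 32.4% and 32.5% of all genes, and 4 were higher and 3 lower in HR+ luminal cells. Ripk3, the kinase that Zbp1 engages to start necroptosis, was higher in basal (5.19 to 6.22 CPM, 4.09) and HR+ luminal cells (0.99 to 3.41 CPM, 2.47) than in HR- luminal cells (0.196 to 0.443 CPM), the lineage in which Zbp1 was highest. Casp4, an inflammatory caspase, went the other way (−1.71 in basal and −3.94 in HR+ luminal cells), as did the pore-forming Gsdmd (−1.04 and −2.19). Mlkl, the executioner of necroptosis, was the only one of the 8 called in interferon-high cells (15.7 to 21.4 against 8.44 to 9.92 CPM, 0.96) and was also higher in cycling cells (26.7 to 32.6 against 8.69 to 9.46 CPM, 1.63, adjusted p = 1.79e-10), where 3 were higher and 2 lower. The medians were 0.07 in basal, 0.04 in interferon-high and 0.17 in cycling cells.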

How the data were processed

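Counts were the deposited UMI counts per gene and cell, which the authors made with Cell Ranger (6.0.2 in the labels, 6.1.1 in the matrix headers) on mm10 and analysed with Seurat 4.0 in R 4.1.3. The members, gene lists, gates and tests used here were chosen with earlier results of these data known. Kept cells had 1000 to 6000 detected genes and less than 5% of UMIs from mitochondrial genes, and no doublet caller was run. UMIs were summed per library and cell class in Python 3.11.15 and tested with edgeR 4.0.16 (R 4.3.3; quasi-likelihood, library as a term, TMM, filterByExpr) with DESeq2 1.42.0 as an alternative, p-values being adjusted over all genes tested. Ratios between libraries carry exact conditional binomial intervals, and single levels exact Poisson intervals, at 95%, for counting error only. Genes named besides the members were up to 4 per list and comparison with the largest change among those called, genes at 0, and the 3 most correlated with a member, with Ifnl2 and Ifnl3 in addition. The test was tested on simulated data. Some genes that this rule selects are not reported here.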

Additional observations from a re-analysis of the deposited data

Results flagged for a closer look

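Over 72 groups of 4 library values tested for 1 value far from the rest, 4 were picked out, and chance picks about 1 in 20. The log2 ratio of Zbp1 between basal and HR- luminal cells was −1.45 in wild-type HU and −1.16 to −1.11 in the other libraries. Ifih1 between HR+ luminal and basal cells stood at 0.79 in Brca2mut/WT HU against 0.06 to 0.13 elsewhere. Tlr3 between the S-phase gate and other HR- luminal cells was 0.31 in Brca2mut/WT control and −0.10 to −0.04 in the others. Ddx58 between cycling and other basal cells was −0.82 in Brca2mut/WT HU and −0.27 to −0.16 in the others.

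Dhx58 in basal cells moved in opposite directions with HU, with a log2 ratio of 0.38 in Brca2mut/WT and −0.46 in wild type. The Brca2mut/WT value of 0.38 also stood opposite to −0.08 in HR- luminal cells of the same libraries. With the looser cell filter the values were −0.01 in basal and 0.04 in HR- luminal cells of Brca2mut/WT. Each rests on 1 library per condition, and neither difference was tested.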

How the results depend on the processing

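The number of members called ranged over the alternatives from 7 to 8 for basal against HR- luminal, 8 to 9 for HR+ against HR- luminal, 4 to 7 for cycling cells and 3 to 4 for cycling basal cells, and was 7 in every alternative for interferon-high cells. For HR+ luminal against basal the 5 calls became 3 with the looser cell filter, 2 to 5 on leaving out 1 library, and 3 without tag pool 2. In the S-phase gate leaving out wild-type HU gave 2 members in place of 1, and between the G2/M and S-phase gates leaving out Brca2mut/WT control gave 3 in place of 5. Genes called in interferon-high cells numbered 1948, and became 3848 with the looser cell filter, 1276 with no library term, 3108 when cells were ranked within each tag pool, 1271 at 10000 UMIs per cell, 2950 without tag pool 2, 1090 without tag pool 4, and 208 to 2268 on leaving out 1 library. Of basal members past 1.5-fold, wild-type HU against control went from 0 to 1 without tag pool 4, Brca2mut/WT HU against control from 0 to 1 with equal weight per tag pool, and Brca2mut/WT HU against wild-type HU from 2 to 0 with the looser cell filter and to 1 with stricter lineage thresholds, without tag pool 4 or with equal weight. The cause was not tested. No call reversed its direction. No paired analysis between conditions was possible because the antibody tags had no key here, so cells could not be assigned to mice. Library was a term in the lineage and gate fits, and an additive fit over genotype and treatment was not run. Cgas, Mavs and HR+ luminal values rest on few UMIs. The S-phase gate, cycling basal cells and left-out tag pools for the tests were added after seeing the data.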
